A study of Danio rerio with 27 samples.

Results

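The ETS factors and Sprouty-type feedback genes considered here are etv4, etv5a, etv5b, spry1, spry2, spry4, spred3 and il17rd. They were listed by symbol with earlier results of these data known, and every row of the deposited expression table with one of these 8 symbols was taken. All 8 symbols were found, and they cover 10 of the 24101 gene identifiers in the table. The symbols etv5a and etv5b each stand for 2 identifiers. How alike the paired entries are in sequence was not examined. If they are copies of each other, the quantification could have split transcripts between them, so the value of each is uncertain. Counts below are of identifiers.

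RNA from whole bodies of AB strain zebrafish larvae was measured in 27 libraries, 3 in each of 9 groups. The question was which transcriptional programs in cold-exposed larvae depend on Foxo1, on the kinase ERK and on p38 kinases. The 96hpf group was untreated and collected at 96 h after fertilization (hpf) from 28 °C, and every other group was exposed for 12 h from that age. Larvae at 28 °C received vehicle (28C_DMSO), the Foxo1 inhibitor AS1842856 at 0.5 µM (28C_AS), PD0325901 at 5 µM (28C_PD) or the p38 inhibitor SB203580 at 50 µM (28C_SB). Larvae moved directly to 10 °C received the same 4 treatments at the same doses (10C_DMSO, 10C_AS, 10C_PD and 10C_SB). PD0325901 blocks MEK, the kinase that activates ERK.

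In the fibroblast growth factor (FGF) pathway, a receptor at the cell surface activates Ras, Raf, MEK and ERK in turn, and ERK then switches on target genes. The Pea3-type ETS factors Etv4, Etv5a and Etv5b are transcription factors that carry this output in zebrafish embryos. Sprouty, Spred and Sef proteins are inhibitors that the same pathway induces and that dampen it, so their transcripts are widely used as readouts of FGF and ERK activity.

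Levels are in scaled TPM. TPM gives a gene's transcripts relative to the whole library after allowing for transcript length, and scaled TPM is that value divided by a size factor of the library. Differences are on the log2(scaled TPM + 1) scale and come from 1 limma fit over all 27 libraries. A gene is said to have risen or fallen, or to be called, where the Benjamini-Hochberg adjusted p over all 24101 identifiers was at most 0.05 and the fold was at least 1.5. The fold is taken on the log2(scaled TPM + 1) scale, where the added 1 makes it smaller than the ratio of scaled TPM, most of all at low levels. All tests were 2-sided, and n was 3 libraries per group throughout. Nothing in the labels says that the libraries of a group came from separate clutches, so the p-values rest on a spread between samples that may be technical.

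Size factors ran from 0.940 to 1.11, mitochondrial transcripts took 7.30 to 12.9% of TPM, and the lowest correlation with a library of the same group was 0.966 to 0.977. TPM keeps no read depth, so the depth behind each value is unknown. No member was listed at 0 in any library. For all 15 tissues and cell types looked for, marker identifiers were found in the table, 111 in total. The table holds only genes that passed the authors' expression filter, so none of them could be at 0 in every library. In such bulk samples, fewer cells of a type and less RNA per cell cannot be told apart.

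**Figure D1:**
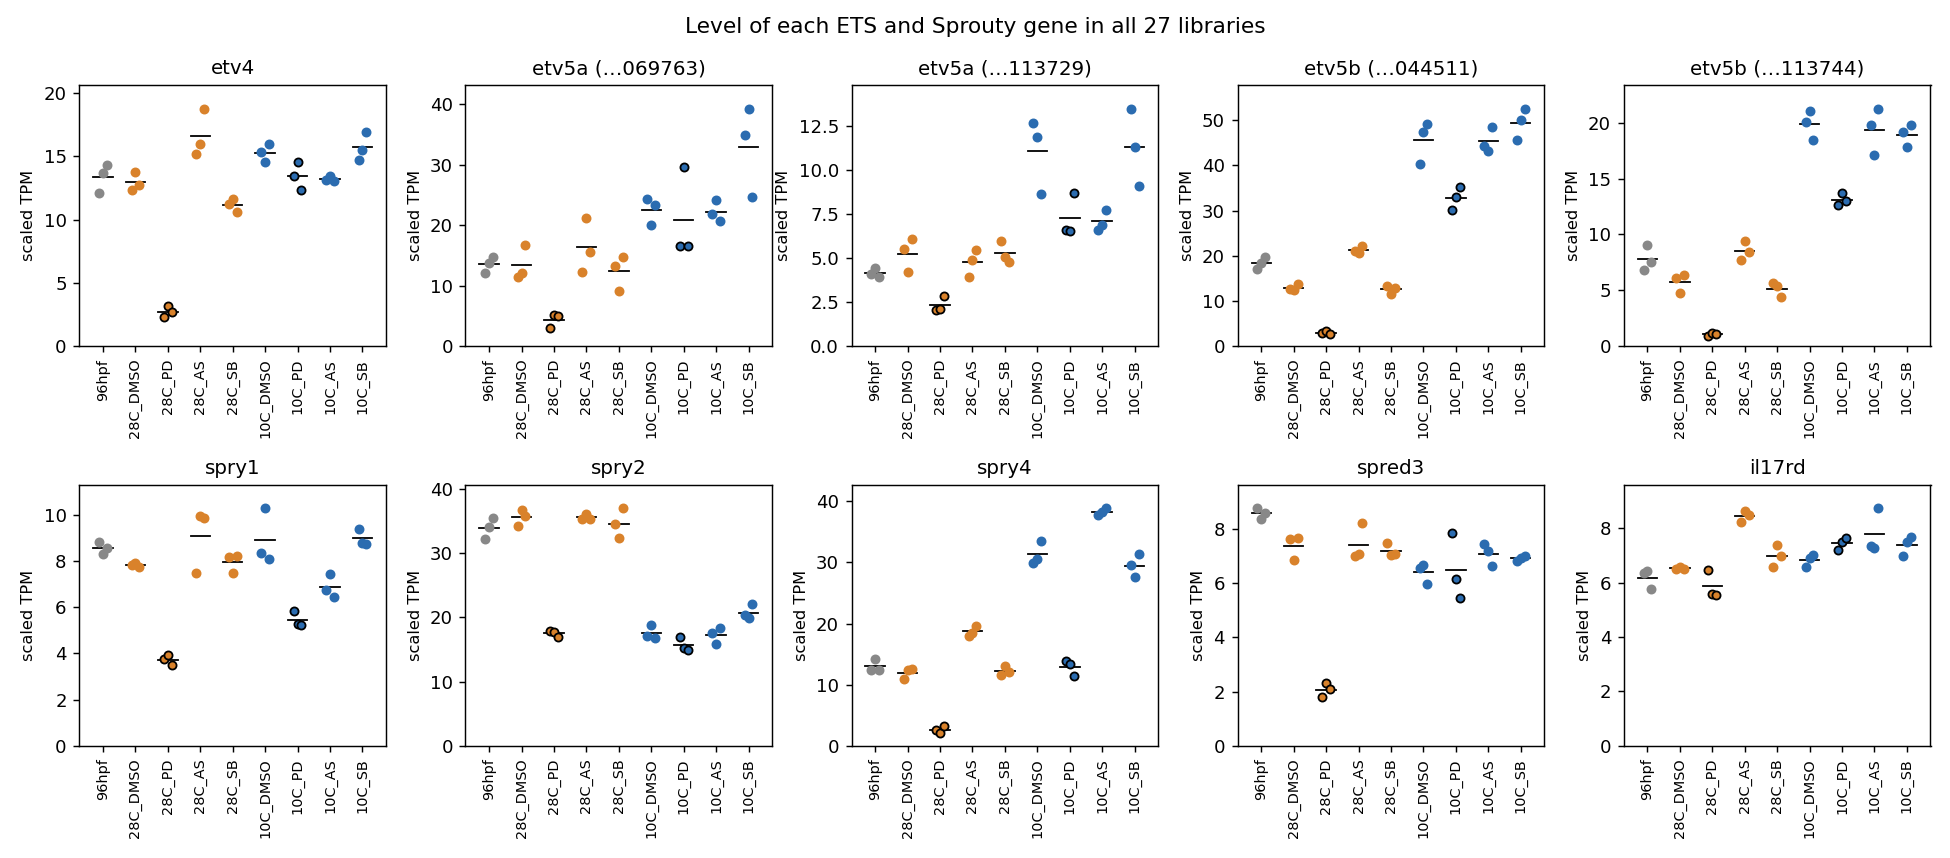
Level in scaled TPM (vertical axes, linear from 0, a separate scale per panel) of the 10 identifiers in each of the 9 groups. Points are libraries, bars are group means, grey is 96hpf, orange 28 °C and blue 10 °C, and black rims mark PD0325901. For 9 of the 10 identifiers the 28C_PD mean is the lowest of the 9 groups.

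The first question is what the MEK inhibitor did at 28 °C. Of the 10 identifiers, 9 fell and none rose, against a background of 0.975% of all identifiers called lower and 0.515% called higher. Because the list was drawn up with earlier results of these data known, such shares describe the table and do not test the list. In all 10 identifiers the 3 28C_PD libraries lay below the 3 28C_DMSO libraries, a separation that 12.3% of all identifiers showed. The median change of the members was -1.44 on the log2 scale, while that of all identifiers was 0.0023. The 9 that fell ranked 26 to 216 of 24101, counted from the most negative change. Without size factors, the median of all identifiers moved to 0.12 and the calls over the table turned from 235 lower and 124 higher to 154 lower and 300 higher. The same count of 9 members fell.

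Among the ETS factors, etv4 (ENSDARG00000018303) was at 12.3, 13.7 and 12.7 scaled TPM in 28C_DMSO and at 2.29, 3.17 and 2.69 in 28C_PD. It fell by 1.91 on the log2 scale (SE 0.09, limma adjusted p = 2.88e-12), and its mean with the inhibitor was 21.0% of that with vehicle. Its change ranked 26 of 24101 counted from the most negative.

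The first etv5b identifier (ENSDARG00000044511) was at 12.6, 12.4 and 13.7 scaled TPM in 28C_DMSO and at 2.83, 3.39 and 2.70 in 28C_PD. The second (ENSDARG00000113744) was at 6.13, 4.78 and 6.37 with vehicle and at 0.919, 1.22 and 1.1 with the inhibitor. They fell by 1.81 (SE 0.08) and 1.69 (SE 0.11) on the log2 scale, with limma adjusted p of 3.73e-12 and 1.14e-09. Every treated library was far below every vehicle library for both.

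For etv5a the libraries scattered more. The first identifier (ENSDARG00000069763) was at 11.4, 12.2 and 16.7 scaled TPM in 28C_DMSO and 3.06, 5.08 and 5.02 in 28C_PD, and it fell by 1.42 (SE 0.23, limma adjusted p = 3.81e-04). The second (ENSDARG00000113729) went from 5.52, 4.19 and 6.05 to 2.08, 2.102 and 2.85, and it fell by 0.90 (SE 0.15, limma adjusted p = 6.60e-04). That call did not hold when only the 2 groups were fitted (limma adjusted p = 0.0559).

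Among the inhibitors of the pathway, spry4 (ENSDARG00000068732), a Sprouty protein that blocks signalling downstream of receptor tyrosine kinases, fell most. It was at 10.99, 12.3 and 12.5 scaled TPM in 28C_DMSO and at 2.54, 2.18 and 3.30 in 28C_PD, a fall of 1.83 on the log2 scale (SE 0.09, limma adjusted p = 1.40e-11). The Raf and Ras inhibitor of the Spred family, spred3 (ENSDARG00000040358), was at 7.62, 6.86 and 7.68 with vehicle and at 1.81, 2.31 and 2.11 with the inhibitor. It fell by 1.45 (SE 0.09, limma adjusted p = 6.52e-10), and its treated level was 28.1% of the vehicle level.

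The other Sprouty genes kept a larger share of their level. spry2 (ENSDARG00000078308) was the most abundant member at 28 °C, with 34.3, 36.6 and 35.8 scaled TPM in 28C_DMSO, and was at 17.9, 17.8 and 17.0 in 28C_PD. spry1 (ENSDARG00000103985) was at 7.84, 7.94 and 7.75 with vehicle and at 3.77, 3.94 and 3.50 with the inhibitor. They fell by 0.98 (SE 0.06) and 0.90 (SE 0.09) on the log2 scale, so 49.4% and 47.6% of the vehicle level was left.

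il17rd (ENSDARG00000098359), which encodes the transmembrane FGF antagonist Sef, was the exception. It was at 6.52, 6.57 and 6.51 scaled TPM in 28C_DMSO and at 6.44, 5.60 and 5.53 in 28C_PD. The treated libraries lay below the vehicle libraries, but the nearest were apart by little, and the difference of -0.14 (95% interval -0.28 to 0.00) was not called at an adjusted p of 0.272.

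At 10 °C the same inhibitor lowered 2 members, spry4 and spry1, and raised none. The background was 0.261% of identifiers called lower and 0.120% called higher. In 5 of the 10 identifiers all 10C_PD libraries lay below all 10C_DMSO libraries, in 1 (il17rd) all lay above, and 4 overlapped. Such separation was seen in 7.71% (below) and 7.42% (above) of all identifiers. The members' median change was -0.32 on the log2 scale, with 0.0023 over all identifiers.

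spry4 was at 29.96, 30.5 and 33.5 scaled TPM in 10C_DMSO and at 13.9, 13.3 and 11.5 in 10C_PD. It fell by 1.22 on the log2 scale (SE 0.09, limma adjusted p = 2.78e-08), to 41.2% of the cold vehicle level. Its treated libraries in the cold were about as high as untreated larvae at 96 hpf, which held 12.4, 14.2 and 12.4.

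spry1 was at 8.36, 10.3 and 8.09 scaled TPM in 10C_DMSO and at 5.84, 5.29 and 5.22 in 10C_PD. It fell by 0.61 (SE 0.09, limma adjusted p = 5.51e-04), just past the fold that a call needs. The call was lost without 10C_DMSO replicate 2, the highest library (-0.52), without size factors (-0.58), and when only the 2 groups were fitted (adjusted p = 0.216).

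Both etv5b identifiers lay lower in all treated libraries in the cold, but under the fold threshold on the log2(scaled TPM + 1) scale. The first was at 40.4, 47.4 and 49.2 scaled TPM in 10C_DMSO and at 30.1, 33.1 and 35.3 in 10C_PD, a difference of -0.46 (SE 0.08, limma adjusted p = 0.00656). The second was at 20.1, 21.0 and 18.4 with vehicle and 12.6, 13.7 and 13.0 with the inhibitor, a difference of -0.56 (SE 0.11, limma adjusted p = 0.0126). Its mean with the inhibitor was 66.1% of that with vehicle. With 0.1 added before the log in place of 1, it was called (-0.59, limma adjusted p = 0.0288). Without 10C_DMSO replicate 3 the second etv5b identifier and the second etv5a identifier were called as well (-0.61 and -0.69), which made 4 members lower, and the former was also called without 10C_PD replicate 2 (-0.59).

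etv4 was at 15.4, 14.5 and 15.9 scaled TPM in 10C_DMSO and at 13.4, 14.5 and 12.3 in 10C_PD. The groups were close to each other, with a difference of -0.18 (95% interval -0.36 to 0.00, limma adjusted p = 0.405). spred3 was at 6.58, 6.69 and 5.98 with vehicle and at 7.86, 6.14 and 5.44 with the inhibitor. Here the treated libraries lay on both sides of the vehicle libraries, with an interval of -0.19 to 0.19.

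spry2 was at 17.1, 18.8 and 16.7 scaled TPM in 10C_DMSO and at 16.9, 15.3 and 14.9 in 10C_PD, and its difference of -0.15 (95% interval -0.28 to -0.02) had an adjusted p of 0.306. The first etv5a identifier was at 24.2, 20.1 and 23.3 against 16.6, 29.6 and 16.5, with an interval of -0.64 to 0.33. The second was at 12.7, 11.9 and 8.65 against 6.61, 6.55 and 8.67, with an interval of -0.86 to -0.22 and an adjusted p of 0.124. In both pairs of groups the ranges met. il17rd was at 6.56, 6.92 and 7.02 with vehicle and at 7.20, 7.50 and 7.63 with the inhibitor, a small shift upward of 0.11 (95% interval -0.03 to 0.25) that was not called.

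**Figure D2:**
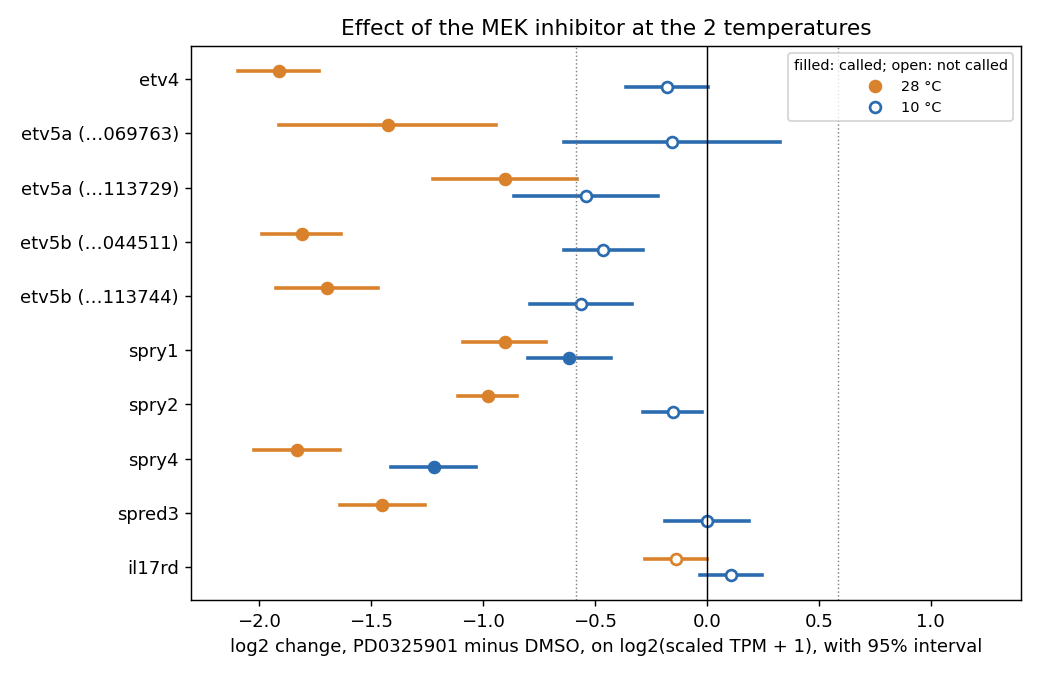
Difference between PD0325901 and DMSO larvae on the log2(scaled TPM + 1) scale (horizontal axis) for each identifier, at 28 °C in orange and at 10 °C in blue. Points are limma estimates over 3 libraries per group, bars are 95% intervals, dotted lines mark the 1.5-fold threshold, and filled points were called. At 28 °C 9 points are filled, and at 10 °C only those of spry1 and spry4.

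The difference between the effects at the 2 temperatures was tested itself, as (10C_PD minus 10C_DMSO) minus (28C_PD minus 28C_DMSO). A positive value means a smaller fall, or a less negative change, in the cold. It was called positive in 7 of 10 identifiers and negative in none, with backgrounds of 0.996% and 0.622% over the table. Without size factors the table's calls turned from 240 positive and 150 negative to 158 and 353. The members' count was then 6 positive, as spry4 was lost.

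etv4 differed most, by 1.73 on the log2 scale (SE 0.12, limma adjusted p = 1.13e-08), and spred3 followed with 1.45 (SE 0.13, adjusted p = 3.27e-07). Both were left almost at the vehicle level by the inhibitor at 10 °C and far under it at 28 °C. The etv5b identifiers differed by 1.35 (SE 0.12) and 1.13 (SE 0.16), the first etv5a identifier by 1.27 (SE 0.33, adjusted p = 0.0291) and spry2 by 0.82 (SE 0.09).

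spry4 was called with a difference of 0.61 (SE 0.13, limma adjusted p = 0.00799), close to the threshold. Each of 5 libraries, left out alone, took it below the fold threshold, with values of 0.51 (without 28C_PD replicate 2) to 0.58. These 5 were 28C_DMSO replicate 3, 28C_PD replicate 2, 10C_DMSO replicate 1 and 10C_PD replicates 1 and 2. The call of the first etv5a identifier was lost without 28C_DMSO replicate 3, 28C_PD replicate 1, 10C_DMSO replicate 2 or 10C_PD replicate 2, with adjusted p of 0.0670 to 0.0845. With only the 4 groups fitted, both were lost as well (adjusted p = 0.104 for spry4 and 0.0984 for etv5a).

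For 3 identifiers no difference was called. spry1 had 0.29 (95% interval 0.03 to 0.55), il17rd 0.25 (0.05 to 0.44) and the second etv5a identifier 0.36 (-0.09 to 0.82). The intervals of spry1 and il17rd did not reach the 1.5-fold threshold of 0.585, while that of etv5a did.

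The vehicle groups show what cold alone did to these genes. Between 10C_DMSO and 28C_DMSO, 5 identifiers rose and 1 fell, where the background was 8.73% higher and 7.06% lower. The 4 etv5a and etv5b identifiers and spry4 rose, and spry2 fell. The members' median was 0.47 on the log2 scale, with -0.0047 over all identifiers. These vehicle libraries are also the controls of the inhibitor comparisons above. Some cell type markers moved between them too, with 14 of 111 marker identifiers lower (background 7.06%) and 11 higher (background 8.73%) in the cold. The count of higher ones was near its background, and 8 of the 14 lower ones were those of the exocrine pancreas. All 8 exocrine pancreas identifiers fell, and their summed level was 6593 to 8068 scaled TPM in 10C_DMSO and 12643 to 13674 in 28C_DMSO. The summed level of 5 hair cell identifiers was 491 to 515 in 10C_DMSO and 156 to 168 in 28C_DMSO. The claudin cldnb, which made up most of the cold sum, went from 68.5 to 387. The list did not move as a whole, since otofb was called higher (4.47 to 10.3) and atoh1a lower (1.91 to 0.811). Cartilage and bone markers (5 identifiers) were at 173% of the warm level. Over the 15 lists the sums lay all below in 3, all above in 5 and overlapped in 7. The part of these shifts in the members' values was not tested.

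The first etv5b identifier rose from a mean of 12.9 to 45.6 scaled TPM, a change of 1.74 (SE 0.08, limma adjusted p = 4.21e-13), and the second from 5.76 to 19.8, a change of 1.63 (SE 0.11). spry4 rose from 11.9 to 31.3, by 1.32 (SE 0.09, adjusted p = 2.07e-10). All cold libraries lay above all warm ones for these 3, and in 7 of the 10 identifiers together, as in 23.3% of all identifiers. They lay below in 2 and overlapped in 1, and the share below over all identifiers was not counted. The second etv5a identifier rose from 5.25 to 11.1, by 0.94 (SE 0.15), and the first from 13.4 to 22.6, by 0.72 (SE 0.23, adjusted p = 0.0166). The call on the first was lost without 28C_DMSO replicate 1 or 2 or 10C_DMSO replicate 1 (adjusted p of 0.0513 to 0.0695), and with library weights (adjusted p = 0.0641).

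spry2 moved the other way, from a mean of 35.6 to 17.6 scaled TPM, by -0.98 on the log2 scale (SE 0.06, limma adjusted p = 6.58e-11). The means of 10C_DMSO and 28C_PD were 17.6 and 17.6, in groups that differ in both temperature and inhibitor. Whether cold and the inhibitor acted alike on spry2 was not tested. etv4, spry1, spred3 and il17rd were not called. Their differences were 0.23 (95% interval 0.04 to 0.41), 0.16 (-0.03 to 0.34), -0.18 (-0.37 to 0.01) and 0.06 (-0.08 to 0.20).

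Among larvae given PD0325901, 7 identifiers were higher at 10 °C than at 28 °C and none lower, with a background of 10.4% higher and 7.17% lower. The first etv5b identifier rose from 2.98 to 32.8 scaled TPM, by 3.09 on the log2 scale (SE 0.08, limma adjusted p = 3.15e-17). etv4 rose from 2.72 to 13.4, by 1.96, and spred3 from 2.08 to 6.48, by 1.27, although neither was called between the vehicle groups. spry1, at 0.45 (95% interval 0.26 to 0.63), spry2, at -0.15 (-0.29 to -0.02), and il17rd, at 0.30 (0.16 to 0.44), were not called. Without size factors the table's calls went from 2498 higher and 1728 lower to 1814 and 2994, and 7 members were called higher in both.

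Set against warm vehicle larvae, cold larvae with the inhibitor still held more etv5b. Between 10C_PD and 28C_DMSO, 2 identifiers were higher (background 9.49%) and 1 lower (background 6.97%). Both etv5b identifiers were higher, by 1.28 and 1.07 on the log2 scale, and spry2 was lower, by 1.13 in size. The first etv5a identifier, at 0.57 (adjusted p = 0.0542), was called as well without 28C_DMSO replicate 3 or 10C_PD replicate 1 or 3. etv4 was at 13.4 against 12.9 scaled TPM (difference 0.05, 95% interval -0.13 to 0.23) and spry4 at 12.9 against 11.9 (0.10, -0.09 to 0.29).

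**Figure D3:**
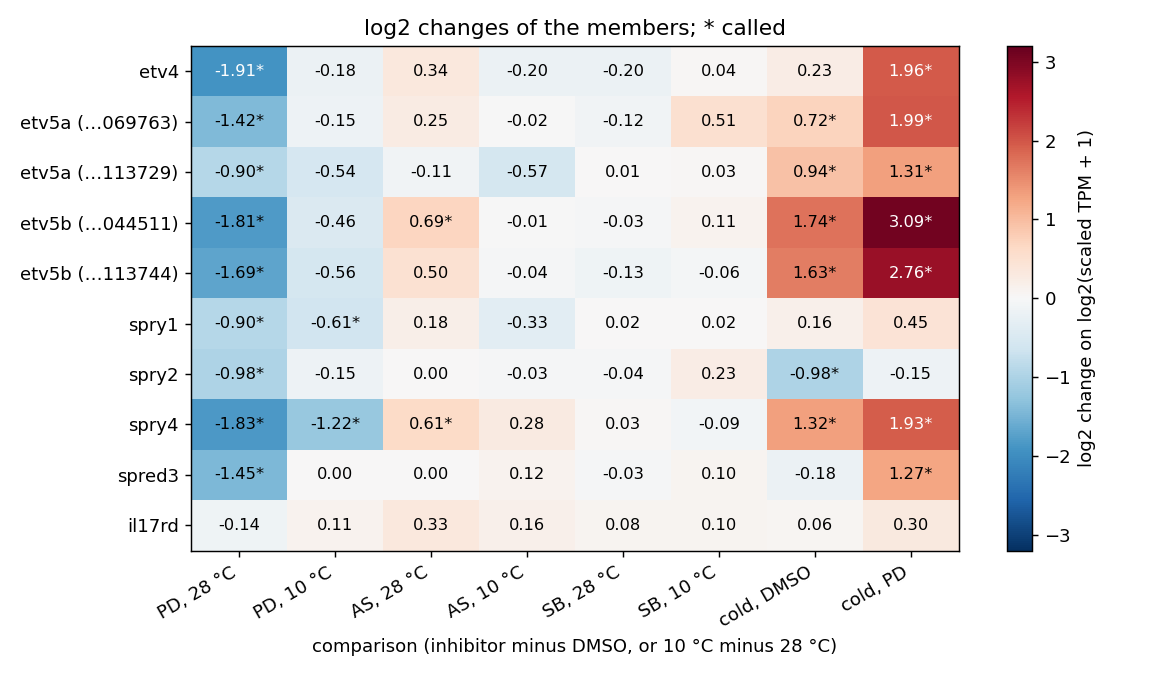
Changes of the 10 identifiers (rows) in 8 comparisons (columns), as differences of log2(scaled TPM + 1), with colour from blue (lower) to red (higher) and a star where the change was called. The column of PD0325901 at 28 °C holds 9 stars, that at 10 °C 2, and those of SB203580 none.

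The other 2 inhibitors were set against the same vehicle groups. With AS1842856 at 28 °C, 2 identifiers rose and none fell (background 6.39% higher and 5.81% lower). The first etv5b identifier was at 21.1, 20.7 and 22.2 scaled TPM and rose by 0.69 (SE 0.08, limma adjusted p = 1.59e-06). spry4 was at 18.0, 18.5 and 19.7 and rose by 0.61 (SE 0.09, adjusted p = 2.14e-05), a call lost without 28C_DMSO replicate 1 (0.55) or 28C_AS replicate 3 (0.57). The second etv5b identifier (0.50), etv4 (0.34) and il17rd (0.33) were past the adjusted p in the same direction, but not past the fold.

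Markers fell in the same 28C_AS libraries, with 19 of 111 marker identifiers called lower (background 5.81%) and 1 higher (background 6.39%). In 11 of 15 lists the summed level lay below that of every 28C_DMSO library, and in 4 the ranges overlapped. Leukocyte markers (8 identifiers) were at 122 to 153 scaled TPM in 28C_AS and 267 to 293 in 28C_DMSO, and intestine markers (8) at 1677 to 1921 and 2647 to 3480. Glia markers (7) were at 1016 to 1141 and 1595 to 1755, and liver markers (6) at 4842 to 5200 and 7321 to 8014. The members called with AS1842856 thus rose in libraries where these lists were lower, and the part of the lists in the members' values was not tested.

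With AS1842856 at 10 °C limma called 0 members, where 0.925% of identifiers were called in either direction. An unadjusted p under 0.05 was reached by 5 members, and the share of all identifiers at that p was not counted. In a test added after the values had been seen, the effect on the first etv5b identifier differed between the temperatures by -0.69 (SE 0.12, limma adjusted p = 2.13e-04). Its means were 45.3 scaled TPM in 10C_AS and 45.6 in 10C_DMSO. It was the one member called there (background 5.39% called negative). Without 28C_AS replicate 1 the count was 4, and without 28C_DMSO replicate 3 or 10C_AS replicate 3 it was 2. The second etv5a identifier was lower with AS1842856 in the cold by 0.57 in size on the log2 scale (limma adjusted p = 0.0443). Its means were 7.08 scaled TPM in 10C_AS and 11.1 in 10C_DMSO. On the log2(scaled TPM + 1) scale it was just under the fold threshold, and it was past it without 10C_DMSO replicate 3 (-0.72).

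SB203580 gave 0 member calls at either temperature in limma, with a background of 0.0207% at each. At 28 °C 1 member and at 10 °C 2 members had an unadjusted p under 0.05, a share that was not counted over all identifiers. The largest value was that of the first etv5a identifier at 10 °C, with 34.9, 39.2 and 24.6 scaled TPM in 10C_SB, above all 3 10C_DMSO libraries but widely spread (0.51, 95% interval 0.02 to 0.99, adjusted p = 0.551). The difference in SB203580 effect between temperatures, also added, was called by limma for 0 members (background 0.0290% called). An unadjusted p under 0.05 was reached by 1 member, again without a share over all identifiers.

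Direct comparisons of the inhibitors, whose differences use no vehicle mean but share the PD0325901 libraries, were made at each temperature. The vehicle libraries still entered the scaling and the shared estimate of the spread. At 28 °C 9 identifiers were lower with PD0325901 than with AS1842856 (background 6.20%), and 9 were lower than with SB203580 (background 0.913%). The exception in both was il17rd, at -0.47 (95% interval -0.61 to -0.33) and -0.22 (-0.36 to -0.08), which passed the adjusted p but not the fold. At 10 °C 1 identifier was lower than with AS1842856 (background 0.261%), spry4, by 1.5 in size. Against SB203580 2 were lower (background 0.178%), spry4 by 1.13 and spry1 by 0.63 in size. Leaving out 10C_AS replicate 2 added the second etv5b identifier (-0.61) to the first of these, and leaving out 10C_PD replicate 3 or 10C_SB replicate 1 added the first etv5b identifier (-0.63) to the second. The call on spry1 against SB203580 was lost when only those 2 groups were fitted (limma adjusted p = 0.0682). The 3 compounds were given at different doses, each at 1 dose.

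The larvae collected at 96 hpf show where the levels began. Over 12 h at 28 °C with vehicle, limma called 0 members, where 2.75% of identifiers were called. An unadjusted p under 0.05 was reached by 3 members, and the share of all identifiers at that p was not counted. The first etv5b identifier went from a mean of 18.5 to 12.9 scaled TPM (-0.49, SE 0.08, adjusted p = 4.62e-04), under the fold threshold. Cold vehicle larvae set against the start gave the same counts as against warm vehicle larvae, 5 higher (background 7.14%) and 1 lower (background 5.27%). The call on the first etv5a identifier (0.69) was lost without 96hpf replicate 1 or 2 or 10C_DMSO replicate 1 or 3 (adjusted p of 0.0522 to 0.0880). For etv4 (13.4 at the start and 15.3 in the cold) the difference was 0.18 (95% interval 0.00 to 0.36).

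A further 2 comparisons with the start were added after the values had been seen, and they share the 96hpf libraries. In 28C_PD 9 identifiers were lower than at the start (background 2.89%), and il17rd was not called (-0.07, 95% interval -0.21 to 0.07). The call on the second etv5a identifier was lost without 28C_PD replicate 1 or 2 (-0.57 and -0.58). In 10C_PD 3 were higher (background 7.17%) and 1 lower (background 4.53%). The second etv5a identifier was higher by 0.68 on the log2 scale and the etv5b identifiers by 0.80 and 0.69, while spry2 was lower by 1.06 in size. The etv5a call was lost without 10C_PD replicate 3 (0.56), and spry1, at -0.57, passed the fold without 96hpf replicate 2 or 10C_PD replicate 1. etv4 was at 13.4 in both groups and spry4 at 12.9 against 13.0 scaled TPM, with intervals of -0.18 to 0.19 and -0.20 to 0.18.

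The order of the 9 groups differed between members. Both etv5b identifiers were highest in 10C_DMSO, 10C_AS and 10C_SB, whose ranges overlapped. 10C_PD stood below these and apart from them, and 28C_PD was lowest and apart from its neighbour. spry4 was highest in 10C_AS (38.3 scaled TPM), apart from 10C_DMSO (31.3) and 10C_SB (29.5), which overlapped. It was next in 28C_AS (18.7), apart from the rest, and then came 96hpf, 10C_PD, 28C_SB and 28C_DMSO, each overlapping its neighbour.

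The 4 groups at 28 °C without PD0325901 had the highest spry2, at means of 33.9 to 35.6 scaled TPM with overlapping ranges, and the 5 other groups were at 15.7 to 20.7. spred3 was highest at 96 hpf (8.57), apart from 7 groups at 6.42 to 7.42 that overlapped from neighbour to neighbour, and 28C_PD (2.08) was far below. il17rd had the narrowest range, from 5.86 in 28C_PD to 8.46 in 28C_AS. In spry1 the 3 lowest groups, 10C_AS (6.88), 10C_PD (5.45) and 28C_PD (3.74), were each apart from the next.

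The paired identifiers moved alike for etv5b and less so for etv5a. In single libraries the first etv5b identifier was 2.01 to 3.08 times the second, and over the 9 group means of log2 values the pair had a Pearson r of 0.998. The ratio for etv5a ran from 1.48 to 4.52, with an r of 0.926. Summed per symbol, an alternative chosen after seeing the data, etv5b changed by -1.96 at 28 °C and -0.50 at 10 °C with PD0325901, and etv5a by -1.35 and -0.27. In both summed symbols the difference between temperatures was called (1.46 and 1.08).

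Over the 9 group means, spry2 was the member least like the others. Its r with the mean of the standardised member profiles was 0.259, while the other 9 identifiers had 0.702 to 0.981. These correlations describe means that share libraries and a scaling, and the profile contains the members themselves. Other genes were ranked by their r with that profile where they had at least 5 scaled TPM in some group. Clone or locus names and symbols shared by several identifiers were left out, so dusp6 and dusp4 could not appear. Among the 10572 genes kept, the 5 with the highest r were ada (0.969), ace (0.954), bcl6b (0.942), NDUFB1 (0.941) and etnppl (0.940). With PD0325901 at 28 °C and at 10 °C, ace, an angiotensin-converting enzyme, changed by -1.56 and -0.14, and bcl6b, a transcriptional repressor, by -0.73 and 0.0055. The changes were -0.49 and -0.0078 in ada, -0.25 and -0.016 in NDUFB1, and -0.69 and 0.0071 in etnppl. Most members were lowest in 28C_PD, so a ranking by likeness to them favours genes that fall there.

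Other genes of the pathway were taken from lists of symbols, also drawn up with earlier results known, with every identifier counted. Contrasts between these lists and the members therefore describe the table and test neither. With PD0325901 the background was 0.975% lower and 0.515% higher at 28 °C, and 0.261% and 0.120% at 10 °C. For the difference between temperatures it was 0.996% positive and 0.622% negative. Upstream of the members little was called. Among 16 identifiers of FGF receptors and adaptors, 0 were called with PD0325901 at either temperature, with fgfr2 at 36.7 scaled TPM in 28C_DMSO and 34.7 in 28C_PD. The receptor fgfr4, singled out after its values were seen, went from 24.7 to 16.9 at 28 °C, past the adjusted p but not the fold (-0.51, limma adjusted p = 1.98e-04). Of 24 FGF ligand identifiers, 1 fell (fgf23, from 1.82 to 0.494) and 1 rose (fgf3, from 2.20 to 4.11) at 28 °C, and none was called at 10 °C. Of 17 identifiers of the cascade from Ras to ERK, only kras was called, and it rose from 26.1 to 40.0 scaled TPM at 28 °C (0.60 on the log2 scale, limma adjusted p = 6.32e-09). The median changes of these 3 lists lay between 0.016 and 0.16 at 28 °C.

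Other ETS factors did not share the pattern of the members in these counts. Of 23 identifiers, 0 fell and 1 rose at 28 °C, the epithelial factor elf3 (10.1 to 18.9 scaled TPM, change 0.84). At 10 °C 1 fell, ets2 (30.6 to 12.8, change -1.19), and ets2 was also the one called for a difference between temperatures (-1.20, limma adjusted p = 0.00783).

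Of 26 identifiers of other feedback genes, 6 fell with PD0325901 at 28 °C and 6 at 10 °C, and none rose. At 28 °C these were both dusp6, both dusp4, dusp2 and spred1, and at 10 °C both dusp5, both dusp6, dusp2 and dusp1. The DUSP proteins are phosphatases that remove phosphate from MAP kinases, and Dusp6 acts mainly on ERK. The dusp6 identifier ENSDARG00000070914 went from 33.1 to 7.81 scaled TPM at 28 °C (change -1.95) and from 100.6 to 50.5 at 10 °C (-0.98). Its difference of 0.97 between temperatures was called (limma adjusted p = 3.39e-06). The other dusp6 identifier (ENSDARG00000116888) changed by -1.76 at 28 °C and -1.32 at 10 °C. Its difference of 0.44 was not called (limma adjusted p = 0.0719). dusp2 changed by -0.84 at 28 °C and -1.32 at 10 °C. Its difference of -0.48 passed the adjusted p (limma, 0.0388) but not the fold. dusp5 showed the opposite order to dusp6, at 47.9 in 10C_DMSO and 21.4 in 10C_PD (ENSDARG00000019307, change -1.12), but at 1.23 and 1.37 in the warm groups. Its difference of -1.21 had a limma adjusted p of 1.01e-04. The 2 dusp5 identifiers were near the floor in 28C_DMSO, at 1.23 and 2.18 scaled TPM. They had little room to fall there, so their negative differences were partly fixed in advance. Over the list 2 identifiers had a positive and 3 a negative difference, the latter being both dusp5 and dusp1.

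Immediate-early and other ERK-responsive transcription genes differed from the members in direction. Of 22 identifiers 1 fell and 2 rose at 28 °C, while 11 fell and none rose at 10 °C. The difference between temperatures was negative in 12 and positive in none, with a median of -0.85 against 0.98 in the members and 0.0076 over all identifiers. egr1 (ENSDARG00000037421), a zinc finger factor, was at 9.33 scaled TPM in 28C_DMSO and 7.02 in 28C_PD (change -0.37, limma adjusted p = 0.0851). In the cold it was at 276 and 31.6 (change -3.10, adjusted p = 4.98e-13). egr3 changed by -2.1, ier2a by -2.48 and fosl1a by -2.43 at 10 °C. Some of these genes were near the floor in 28C_DMSO, such as fosb (0.293 scaled TPM), egr4 (0.734), fosl1a (1.04) and egr3 (1.96). Others were not, such as ier2a (9.20) and junbb (11.5). A gene near the floor has little room to fall at 28 °C, so for it a negative difference between temperatures was partly fixed in advance. With vehicle, 19 of the 22 identifiers were called higher in the cold, where 8.73% of all identifiers were. Genes such as fosb and egr4, under 1 scaled TPM in 28C_DMSO, could not have passed the authors' expression filter through that group. For them a higher level in some other group was partly fixed in advance.

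**Figure D4:**
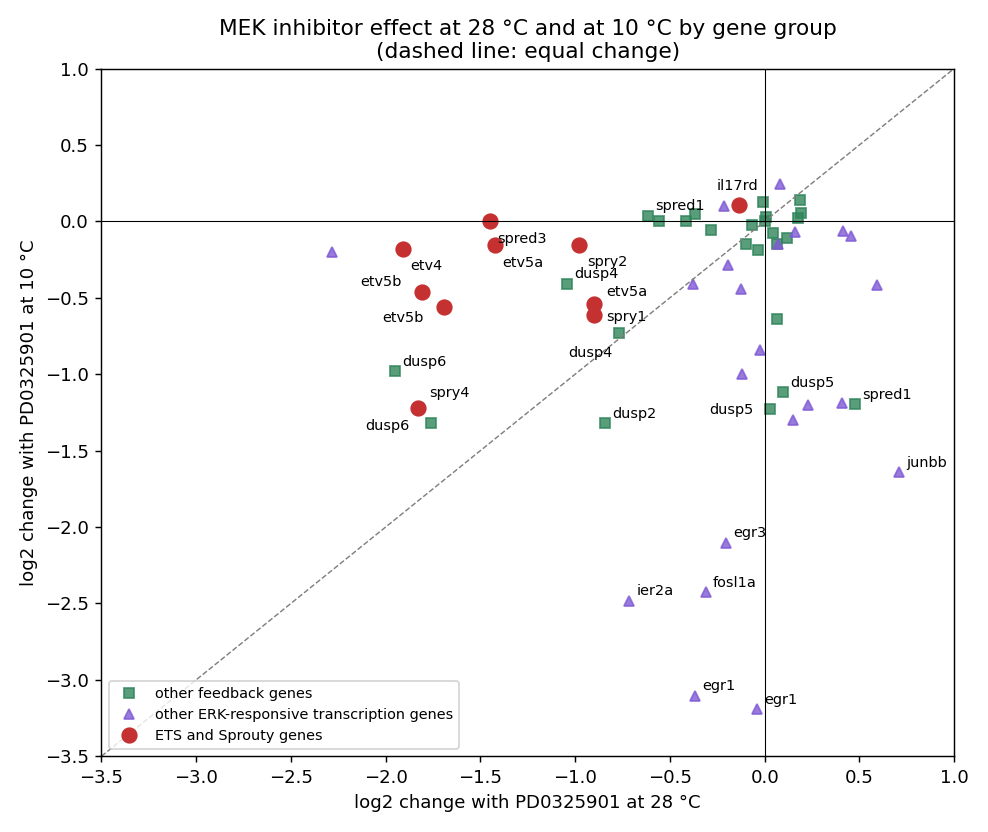
Change with PD0325901 at 28 °C (horizontal axis) and at 10 °C (vertical axis), both as differences of log2(scaled TPM + 1), of the members (red circles), other feedback genes (green squares) and other ERK-responsive transcription genes (purple triangles). Each point is 1 identifier, and the dashed line marks equal change. The members spread along the left side, with etv4 at -1.91 and -0.18, while egr1 sits at the bottom with -0.37 and -3.10.

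Cell type markers moved in part with PD0325901. At 28 °C 1 of 111 marker identifiers was called (the keratin krt91, lower), where 0.975% of all identifiers were called lower. At 10 °C 4 were, all lower (both epcam, cp and cldnb), where that share was 0.261%. Of the 15 lists, the summed level in 28C_PD lay below every 28C_DMSO library in 8, above in 1 (glia) and overlapped in 6. In the cold it lay below in 6 and overlapped in 9.

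The summed level of 11 epidermis identifiers was 5470 to 5907 scaled TPM in 28C_PD and 7398 to 8507 in 28C_DMSO, and in the cold 7538 to 8203 and 8498 to 10005. That of 6 erythroid identifiers was 1637 to 1719 in 28C_PD and 2117 to 2458 in 28C_DMSO, and that of 6 liver identifiers 5706 to 5947 and 7321 to 8014. The 8 lists that lay below kept 71.6% (epidermis) to 90.3% (endothelium) of the vehicle level. The 9 members that fell kept 18.8 to 49.4%, and which cells hold their transcripts was not examined. At 10 °C the lowest share was that of the 5 hair cell identifiers, 53.5%, with 249 to 288 scaled TPM in 10C_PD and 491 to 515 in 10C_DMSO. Most of that sum was cldnb, which fell from 387 to 158 (-1.29, limma adjusted p = 9.39e-09). The part of these shifts in the members' values was not tested.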

How the data were processed

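The authors extracted RNA from whole larvae and mapped reads to zebrafish cDNA of Ensembl with Salmon 0.13.1, corrected for GC, sequence and position bias, and summarised transcripts to genes with tximport. They deposited TPM values and kept a gene where some group had a TPM of 1 or more in each of its replicates. All 24101 identifiers met that filter. Groups were taken from the sample titles, and no library or column was left out.

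Each library was scaled by a size factor (median of ratios to the geometric mean) and analysed as log2(scaled TPM + 1) with limma 3.58.1 in R 4.3.3. The fit used group means of 27 libraries, a trended variance prior and 18 residual degrees of freedom, without a filter. Because TPM holds no counts, a count-based test could not be used in place of limma. A rank-type exact test of 3 against 3 cannot go below p = 0.1. The fit was tested on simulated data. Of the 8 symbols all were named, with pathway genes by size of change among those called. Members, lists and comparisons were chosen with earlier results of these data known. Alternatives covered pseudocounts, scaling, filters, library weights, fold thresholds, a replicate block and leaving out each library. No coordinates or sequences are given.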

Additional observations from a re-analysis of the deposited data

Results flagged for a closer look

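In 7 identifiers the effect of PD0325901 differed between 10 °C and 28 °C by the limma test of that difference. All were positive, a call that 0.996% of all identifiers had. The calls on spry4 and on etv5a (ENSDARG00000069763) depended on single libraries and were lost with only the 4 groups fitted. The effect at 10 °C minus that at 28 °C, on the log2 scale, was 1.73 in etv4, 1.45 in spred3, 1.27 in etv5a (ENSDARG00000069763), 1.35 and 1.13 in the etv5b identifiers ENSDARG00000044511 and ENSDARG00000113744, 0.82 in spry2 and 0.61 in spry4.

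The effect of AS1842856 on etv5b (ENSDARG00000044511) differed between the temperatures by -0.69 on the log2 scale, in a comparison added after seeing the data. Its mean was 21.3 scaled TPM in 28C_AS against 12.9 in 28C_DMSO, and 45.3 in 10C_AS against 45.6 in 10C_DMSO.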

How the results depend on the processing

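Over 3380 values of single members under the alternatives, 3178 kept their direction and side of the thresholds, 59 lost a call, 52 gained one, 91 changed sign while called in neither, and 0 were reversed. The counts of 9 members lower with PD0325901 at 28 °C and 7 higher with a cold shift in its presence were within 1.5 times under every alternative run. The count at 28 °C still changed with a fold of 2, where spry1 (-0.90), spry2 (-0.98) and the second etv5a identifier (-0.90) were no longer called. For the difference between temperatures, a fold of 2 took out spry2 (0.82) and spry4 (0.61). TPM keeps no depth, so what depth limits could not be assessed. The cause of the changes listed here was not tested.

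A changed fold threshold also changes the calls over the whole table. The member counts under it, here and below, have no background beside them and show only how far calls depend on the threshold. Of members lower with PD0325901 at 10 °C (2), the count was 1 with TPM as deposited, with only the groups compared or with a fold of 2, and 4 without a fold threshold. For 10C_PD against 96hpf the count of lower members (1) was 2 with a pseudocount of 0.1 or 0.5 or TPM as deposited, and 3 without a fold threshold, and the count of higher members (3) was 1 with TPM as deposited and 0 with a fold of 2. For the difference in AS1842856 effect, 1 negative member became 2 with a pseudocount of 0.1, 4 without a fold threshold and 0 with a fold of 2. Over 12 h at 28 °C 0 lower members became 1 with TPM as deposited and 2 without a fold threshold.

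With AS1842856 at 28 °C, 2 higher members became 1 with library weights, 5 without a fold threshold and 0 with a fold of 2, and at 10 °C 0 lower became 2 without a fold threshold. In the cold response with DMSO a fold of 2 left 3 of 5 higher and 0 of 1 lower, and in 10C_DMSO against 96hpf it left 0 of 1 lower, where no fold threshold gave 2. PD0325901 against SB203580 at 10 °C gave 1 lower member in place of 2 with only the groups compared or a fold of 2, and 4 without a fold threshold. PD0325901 against AS1842856 at 10 °C gave 3 in place of 1 without a fold threshold, and likewise 10C_PD against 28C_DMSO gave 2 lower in place of 1. Summing the etv5a and etv5b identifiers left 3 higher members in the cold with DMSO and against 96hpf, and 1 for 10C_PD against 28C_DMSO, since fewer entries were then counted.

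Leaving out each library in turn gave 1 to 4 members lower with PD0325901 at 10 °C, 5 to 7 with a positive difference between temperatures, 1 to 2 higher with AS1842856 at 28 °C and 0 to 1 lower with it at 10 °C. It gave 1 to 2 lower for PD0325901 against AS1842856 at 10 °C, 1 to 2 lower for 10C_PD against 96hpf, and 1 to 4 negative for the difference in AS1842856 effect.

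With TPM as deposited the all-gene calls turned from 391 lower and 271 higher to 623 and 176 over 12 h at 28 °C, and from 1271 and 1720 to 2263 and 1276 in 10C_DMSO against 96hpf. They turned from 1494 and 1191 to 924 and 2022 for PD0325901 against AS1842856 at 28 °C, and from 220 and 198 to 162 and 387 against SB203580. For 10C_PD against 96hpf they turned from 1092 and 1728 to 1795 and 1355.

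Replicate numbers were not treated as pairs in the main fit. In 0 of 17 comparisons of 2 groups did every same-numbered pair correlate above 0.1 (range -0.076 to 0.23). Differently numbered pairs were not compared with them, so whether the numbers pair the libraries was not settled. With the replicate block all member counts stayed the same, among them 9 lower with PD0325901 at 28 °C, 2 at 10 °C and 7 with a positive difference, and the all-gene calls were 362, 98 and 409 in place of 359, 92 and 390.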
